A study of Mus musculus with 8 samples.

Results

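Cdkn1a, which encodes the cyclin-dependent kinase inhibitor p21, was examined together with 9 genes linked to the p53 stress response in RAW264.7 macrophages treated with recombinant FSTL1 (rFSTL1). The 10 genes were Cdkn1a, Trp53, Mdm2, Ccng1, Trp53inp1, Bax, Bbc3, Gadd45a, Btg2 and Ier3. They were chosen by gene symbol, with the results of this comparison already known, among the 22013 genes of the count table, and all 10 were among the 10748 genes with enough counts to be tested. The question was whether Cdkn1a and Ier3 rose with or without other p53 target genes. Because Cdkn1a and Ier3 were selected on this comparison, the values of the 10 genes are a description and carry no test.

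RAW264.7 is a mouse macrophage-like cell line that came from a tumour induced by Abelson murine leukaemia virus. FSTL1 is a secreted glycoprotein. Cells received PBS or rFSTL1 (100 ng/mL for 24 h), and polyadenylated RNA was sequenced in 4 libraries per group. The series description gives the treatment time for rFSTL1 only, and the labels do not say whether the libraries of a group came from separate cultures. The spread between libraries may therefore be technical, and both groups are the same line.

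The p53 protein, encoded by Trp53, is a transcription factor that accumulates after DNA damage and other stresses. It induces Cdkn1a, which stops the cell cycle, and Mdm2, whose product marks p53 for degradation, and it also induces genes that arrest growth, repair DNA or start apoptosis. Cdkn1a is known to respond to many signals besides p53, and Ier3 is an immediate early gene of mitogens, stress and NF-kB.

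The windows before the start sites of Cdkn1a and Ier3, the genes with the largest changes among the 10, are printed to show which p53 and NF-kB motifs they hold, and that of Mdm2 is printed beside them as a classical p53 target. Sequences came from RefSeq (GRCm38.p6) and cover the 250 bases upstream of an annotated start, 5′ to 3′ on the gene's own strand. The build of the count table is not given in the sources used here. Of the 10 genes, 9 matched the promoter table, and Trp53inp1 did not. Capitals mark matches to the p53 decamer, which is the repeat unit of the p53 response element, and to the NF-kB site, searched on both strands.
Cdkn1a upstream start, chr17:29090729-29090978, plus strand: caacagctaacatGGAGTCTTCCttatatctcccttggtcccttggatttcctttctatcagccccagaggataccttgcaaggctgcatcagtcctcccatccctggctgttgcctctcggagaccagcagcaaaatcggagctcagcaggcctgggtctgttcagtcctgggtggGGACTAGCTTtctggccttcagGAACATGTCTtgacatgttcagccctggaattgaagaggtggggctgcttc
Ier3, chr17:35821463-35821712, plus strand: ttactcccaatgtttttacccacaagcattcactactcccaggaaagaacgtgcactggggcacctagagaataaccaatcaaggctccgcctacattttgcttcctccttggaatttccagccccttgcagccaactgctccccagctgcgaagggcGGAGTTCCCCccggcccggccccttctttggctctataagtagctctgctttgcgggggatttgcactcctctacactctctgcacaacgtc
Mdm2, chr10:117710759-117711008, minus strand: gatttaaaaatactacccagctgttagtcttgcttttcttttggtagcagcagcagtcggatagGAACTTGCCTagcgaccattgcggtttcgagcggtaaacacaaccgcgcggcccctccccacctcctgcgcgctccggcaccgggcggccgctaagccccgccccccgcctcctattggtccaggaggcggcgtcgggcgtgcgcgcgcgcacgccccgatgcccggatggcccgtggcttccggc

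In the Cdkn1a window, the first run of capitals is an NF-kB match on the opposite strand, and the other runs are p53 decamers at positions -73 to -64 and -51 to -42 from the start. Together these decamers met the search definition of a complete p53 site (a pair of decamers with 0 to 13 bases between them). Such a pair was held by 21 of 32851 promoters of the same length (0.0639%). The stretch directly after the second decamer, tgacatgttc, fits the decamer pattern except at its first base, so the search left it out. Which of these stretches p53 uses was not tested. A single p53 decamer was present in 7.13% of those promoters and an NF-kB site in 5.74%. The window before the second annotated Cdkn1a start (chr17:29093519-29093768) held no p53 decamer. The Ier3 window held an NF-kB match at -92 to -83 and no p53 decamer. Mdm2 held the single decamer GAACTTGCCT, Ccng1 held GGGCAAGCCT, Bax held AGGCAAGCTT, Gadd45a held GGGCTAGCCC and Trp53 held GGACTTGCCC, whereas the Btg2 and Bbc3 windows held none. NF-kB matches were not limited to Cdkn1a and Ier3, since the first Bbc3 window held one at -137 to -128 (GGGAAACCCC) and the Trp53 window one at -227 to -218 (GGAGGACTCC, on the opposite strand). A match describes letters and not binding, and where there was no match it says only that the letters are not in that window.

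The libraries held between 15183118 and 20234477 counts under PBS and between 15062023 and 19260960 under rFSTL1. Across all tested genes, the correlation between libraries was 0.9901 to 0.9939 within groups and 0.9894 to 0.9936 between groups. Of the macrophage markers, 8 of 9 were tested and none passed the test (edgeR, DESeq2 and limma voom each called 0, and DESeq2 gave no adjusted p to 1). An unadjusted p under 0.05 was found for 1 of the 8 (12.5%, against 15.9% of all tested genes). That marker was Cd14, a co-receptor for lipopolysaccharide, at 810 ± 23.1 and 859 ± 18.7 CPM in PBS and rFSTL1 libraries (SD, n = 4 each), without overlap (log2 fold change 0.08, adjusted p = 0.293, edgeR), and Spi1, the myeloid factor PU.1, had 0.13 (adjusted p = 0.341, edgeR). Their part in the results was not tested. The summed level of the macrophage markers was 4366 to 4517 CPM (counts scaled to a common library size) under PBS and 4445 to 4587 CPM under rFSTL1, while Mertk reached at most 2 counts. Of 7 markers of other cell types, none was tested, and together they had 3 to 22 counts in a library.

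Cdkn1a was higher in every rFSTL1 library than in any PBS library. The level was 28.6, 25.2, 26.2 and 24.4 CPM in PBS replicates 1 to 4, and 36.3, 39.0, 34.8 and 37.7 CPM in rFSTL1 replicates 1 to 4. Means were 26.1 ± 1.82 and 37.0 ± 1.83 CPM for PBS and rFSTL1 (SD, n = 4 each). This was a 1.41-fold change, or 0.50 on the log2 scale (standard error 0.07, 95% interval 0.36 to 0.64), larger than that of 98.8% of tested genes. The gap between the groups was wider than the spread within either. The library kit in the labels does not mark strand, and 7.7% of the exon bases of Cdkn1a are shared with AC167363.2 on the opposite strand, so reads from these bases cannot be assigned to either.

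Ier3 was likewise higher in all 4 rFSTL1 libraries, and it encodes a stress-inducible protein that modulates apoptosis. Its level was 42.6, 36.8, 35.0 and 26.9 CPM under PBS and 55.3, 62.8, 51.9 and 48.9 CPM under rFSTL1, again without overlap between the groups. Means were 35.3 ± 6.46 and 54.7 ± 5.98 CPM (SD, n = 4 each), with a log2 fold change of 0.63 (standard error 0.11, 95% interval 0.40 to 0.85) and a 1.54-fold change. The spread was wider than that of Cdkn1a, at 18.3% of the mean under PBS against 6.98%. PBS replicate 4 was the lowest library for both genes. The call of Ier3 was lost without PBS replicate 2 or without PBS replicate 3, where the log2 fold change was 0.65 and 0.62. When group means were subtracted, the log2 levels of Cdkn1a and Ier3 had a Pearson r of 0.76 and a Spearman rho of 0.67 over the 8 libraries, which share depth and scaling.

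**Figure D1:**
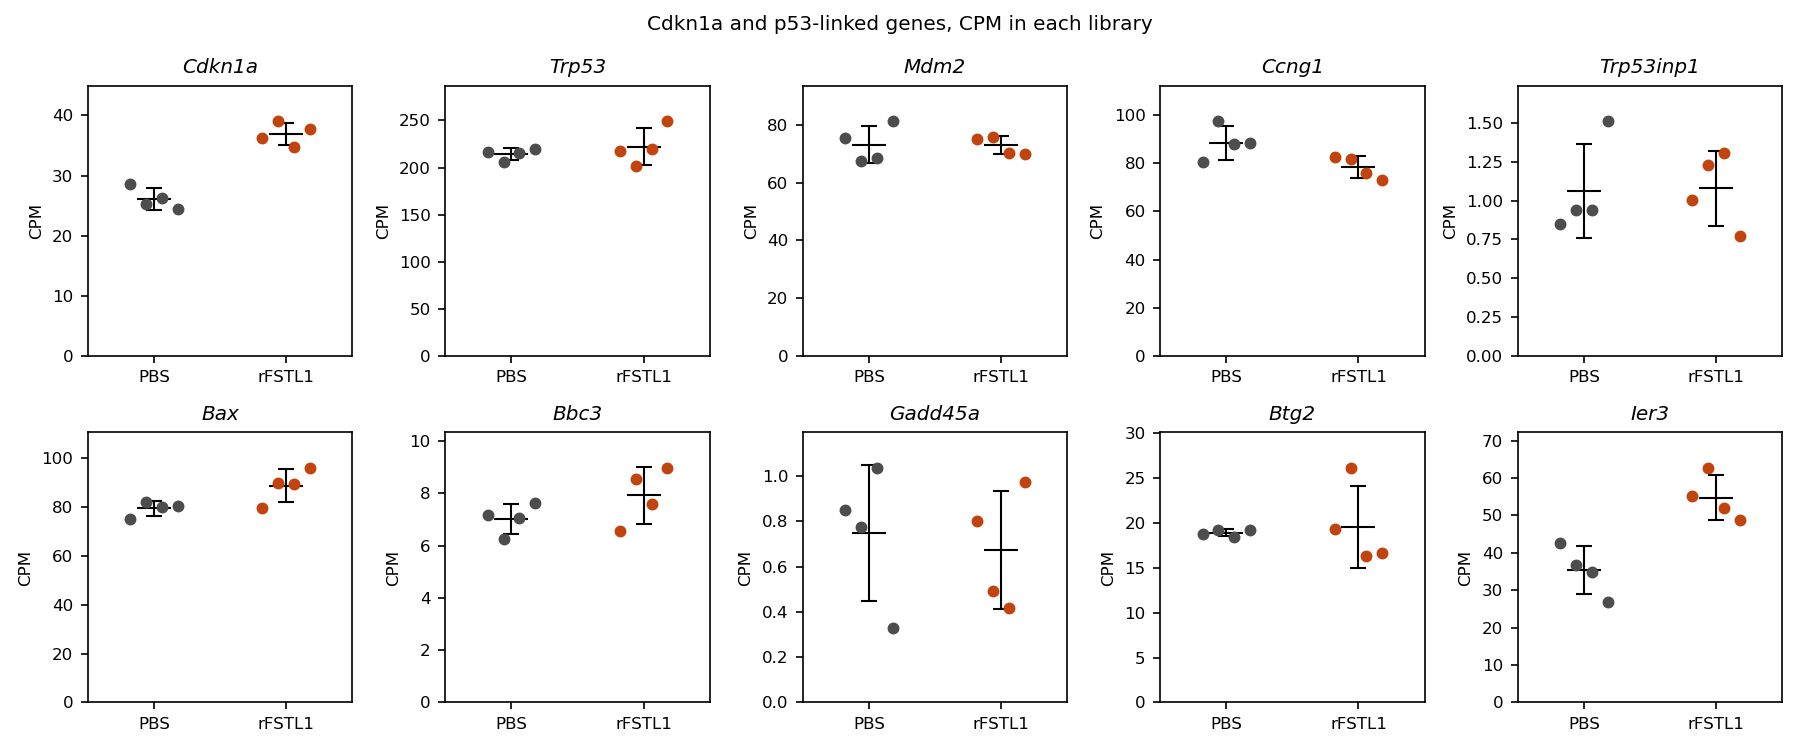
Level of the 10 genes in each library, in CPM on an axis starting at 0, for PBS (grey) and rFSTL1 (orange), with the mean (bar) and SD (whiskers) of 4 libraries. The points of Cdkn1a (24.4 to 28.6 CPM under PBS, 34.8 to 39.0 CPM under rFSTL1) and of Ier3 do not overlap, and those of the other 8 genes do.

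For Trp53 and its feedback target Mdm2, the groups overlapped and the 95% intervals held 0. Trp53 stood at 217, 206, 216 and 220 CPM under PBS and at 217, 202, 220 and 249 CPM under rFSTL1. Its groups overlapped, and the log2 fold change was 0.05 (standard error 0.06, 95% interval -0.07 to 0.17). Mdm2, which encodes the ubiquitin ligase that limits p53, stood at 75.4, 67.5, 68.4 and 81.3 CPM under PBS and at 75.2, 75.9, 70.4 and 70.0 CPM under rFSTL1. The difference was near 0, with a 95% interval on the log2 scale of -0.13 to 0.12. RNA levels say nothing of p53 protein, which was not measured here.

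Among the arrest genes, Ccng1 (cyclin G1) did not pass the test. Its level was 80.3, 97.5, 88.0 and 88.3 CPM under PBS and 82.6, 81.8, 75.9 and 73.2 CPM under rFSTL1. The groups overlapped through PBS replicate 1, and the log2 fold change was -0.18 (standard error 0.06, 95% interval -0.30 to -0.05). Btg2, an antiproliferative gene, was 18.8, 19.3, 18.5 and 19.2 CPM under PBS and 19.3, 26.2, 16.3 and 16.7 CPM under rFSTL1, with a log2 fold change of 0.05 (standard error 0.12). Its rFSTL1 libraries lay both above and below the PBS range, with rFSTL1 replicate 2 highest. Gadd45a, a growth arrest and DNA damage gene, and Trp53inp1, a p53 cofactor, had low counts, with 5 to 21 counts and 14 to 25 counts per library. Their 95% intervals on the log2 scale, -1.004 to 0.64 and -0.58 to 0.65, were wide, and a change within them was not detectable at this depth. Of the exon bases of Gadd45a, 19.1% are shared with E230016M11Rik on the opposite strand.

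The pro-apoptotic genes Bax and Bbc3 had small positive differences, and neither passed the test (adjusted p = 0.205 and 0.496, edgeR). In both genes the groups overlapped. Bax, which encodes the pore-forming BCL-2 family protein, was 75.1, 81.9, 80.0 and 80.6 CPM under PBS and 79.6, 89.7, 89.4 and 96.0 CPM under rFSTL1. Only rFSTL1 replicate 1 fell within the PBS range, and the log2 fold change was 0.16 (standard error 0.06, 95% interval 0.04 to 0.28). Bbc3 (PUMA), a BH3-only activator of Bax, was 7.17, 6.25, 7.06 and 7.62 CPM under PBS and 6.55, 8.56, 7.59 and 8.98 CPM under rFSTL1, with a log2 fold change of 0.18 (standard error 0.12, 95% interval -0.08 to 0.44). Bax shares 12.2% of its exon bases with Gm45808 on the same strand, and its estimated counts were not whole numbers in most libraries. In a bulk sample, a change in RNA per cell and a change in the number of cells that express a gene cannot be told apart.

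**Figure D2:**
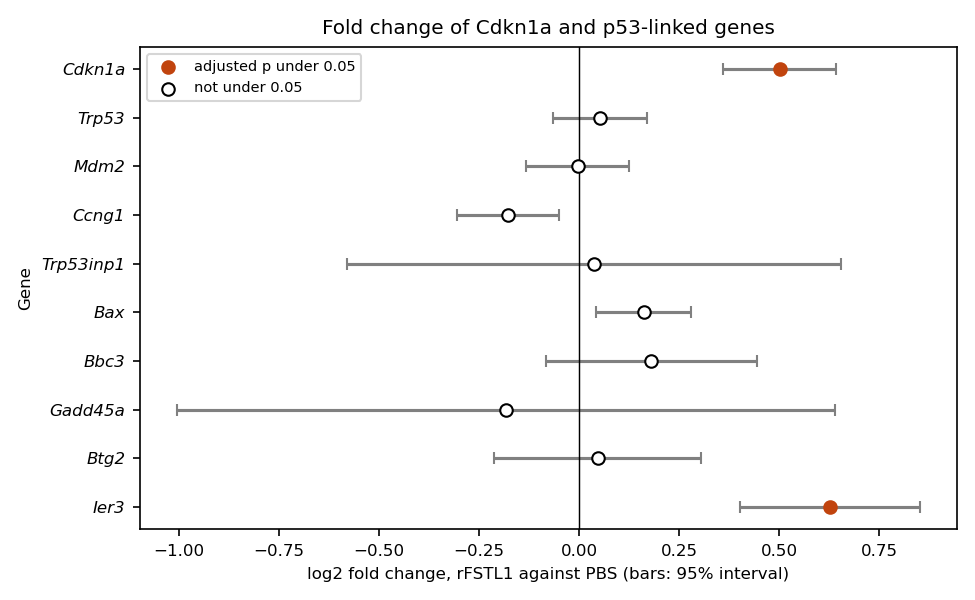
Log2 fold change of each of the 10 genes, rFSTL1 against PBS, with 95% intervals from edgeR. Cdkn1a (0.50) and Ier3 (0.63) are the filled points, and Gadd45a and Trp53inp1, with 5 to 25 counts in a library, have the widest bars.

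In all, 2 of the 10 genes passed an adjusted p of 0.05, both higher, and none was lower. Over all tested genes, 0.326% were called higher and 0.0186% lower (35 and 2 genes, against 128 and 67 with DESeq2 and 244 and 210 with limma voom), and the rFSTL1 libraries lay above every PBS library in 4.63% of genes and below in 3.53%. The 37 calls became 11 without PBS replicate 2, all higher, and 203 without rFSTL1 replicate 2, of which 119 were higher and 84 lower. Since the genes were selected on this comparison, nothing is read from their share. Of the other 8 genes, none was called by edgeR or limma voom, and DESeq2 called none of the 5 to which it gave an adjusted p (it gave none to Trp53inp1, Bbc3 and Gadd45a). Of the 8, 2 (Ccng1 and Bax, in opposite directions) had an unadjusted p under 0.05, as did 15.9% of all tested genes. The log2 fold change was positive for 5 of the 8 and negative for 3, and their median was 0.04 against 0.01 over all tested genes.

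Ratios between genes within a library need no scaling between libraries. The ratio of Cdkn1a to Mdm2 counts was 0.380, 0.374, 0.383 and 0.300 under PBS and 0.482, 0.514, 0.494 and 0.539 under rFSTL1, with means of 0.359 ± 0.0397 and 0.507 ± 0.0250 (SD, n = 4). The groups did not overlap in this ratio. Nor did they in the ratio of Cdkn1a to Ccng1 (0.297 and 0.473 on average), to Bax (0.330 and 0.418) or to Trp53 (0.122 and 0.167). Cdkn1a was selected on this comparison, so the separation largely follows from that selection and adds no support. The share of other gene pairs without overlap was not computed. The ratio of Trp53 to Mdm2 was 2.71 to 3.16 under PBS and 2.66 to 3.56 under rFSTL1, and that of Ier3 to Cdkn1a was 1.11 to 1.49 and 1.295 to 1.61, so both overlapped.

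**Figure D3:**
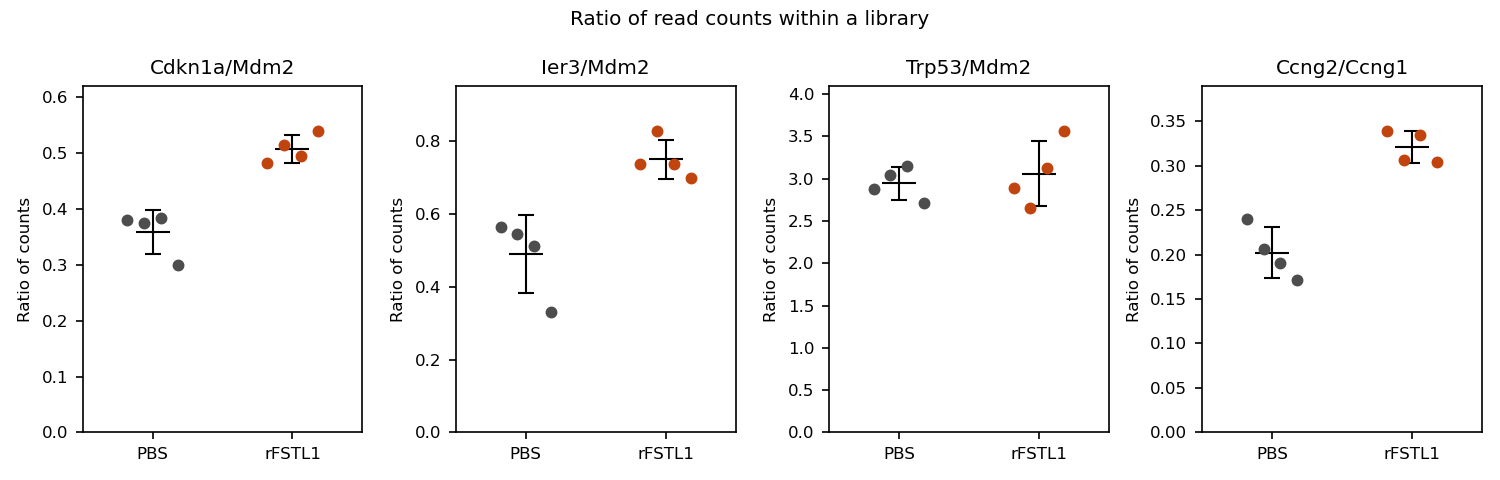
Ratio of read counts of gene pairs within each library, with the mean and SD of 4 libraries, on axes starting at 0. Cdkn1a to Mdm2 (0.300 to 0.383 under PBS, 0.482 to 0.539 under rFSTL1), Ier3 to Mdm2 and Ccng2 to Ccng1 separate the groups, and Trp53 to Mdm2 does not. Cdkn1a and Ier3 were selected on this comparison and Ccng2 was named for its call, so the separation is a description.

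Levels between genes were compared per kilobase of exon (GENCODE M21), as CPM per kb under PBS. The order was Trp53 (53.04), Bax (50.4), Ier3 (31.2), Ccng1 (25.2), Mdm2 (14.4), Cdkn1a (7.35), Btg2 (6.90), Bbc3 (3.31), Gadd45a (0.424) and Trp53inp1 (0.164). The ranges of Trp53 and Bax, of Ier3 and Ccng1, of Cdkn1a and Btg2, and of Gadd45a and Trp53inp1 overlapped over the PBS libraries. Under rFSTL1, Cdkn1a (9.79 to 10.99 CPM per kb) lay above Btg2 (5.93 to 9.54), and Ier3 (43.2 to 55.5) reached the ranges of Trp53 and Bax.

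The wider lists of p53 target genes, which leave out the 10 genes, had medians near 0. Of 28 arrest and repair targets, 23 were tested, 12 had a positive and 11 a negative log2 fold change, and the median was 0.00. Of 14 cell death targets, 10 were tested, with 4 positive and 6 negative and a median of -0.01. Of these 33 genes, edgeR called 0, limma voom called 1 (Plk2), and DESeq2 called 0 and gave no adjusted p to 9. Without rFSTL1 replicate 2, edgeR called 1 (Sesn1, lower). An unadjusted p under 0.05 was found in 5 of them (15.2%), 2 higher and 3 lower, against 15.9% of all tested genes.

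Among the arrest and repair targets, Plk2 (a polo-like kinase) had the smallest p-value. It stood at 7.95, 9.52, 8.68 and 8.21 CPM under PBS and at 11.5, 13.7, 11.4 and 10.2 CPM under rFSTL1, without overlap. Its difference was 0.44 on the log2 scale, with a standard error of 0.11 and an adjusted p of 0.0993 from edgeR. The sestrins, which are stress-induced regulators of mTORC1, differed in sign, with log2 fold changes of -0.22 for Sesn1 (adjusted p = 0.157, edgeR) and 0.28 for Sesn2 (adjusted p = 0.252, edgeR). In the cell death list, Apaf1, the scaffold of the apoptosome, was lower in every rFSTL1 library (-0.12, adjusted p = 0.251, edgeR), Dram1 had -0.13 (adjusted p = 0.331, edgeR) and Bid had 0.05 (adjusted p = 0.683, edgeR). Perp and Spata18 had 0 counts in all libraries, which allows up to 3 counts, or 0.148 CPM in the largest and 0.199 CPM in the smallest library.

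**Figure D4:**
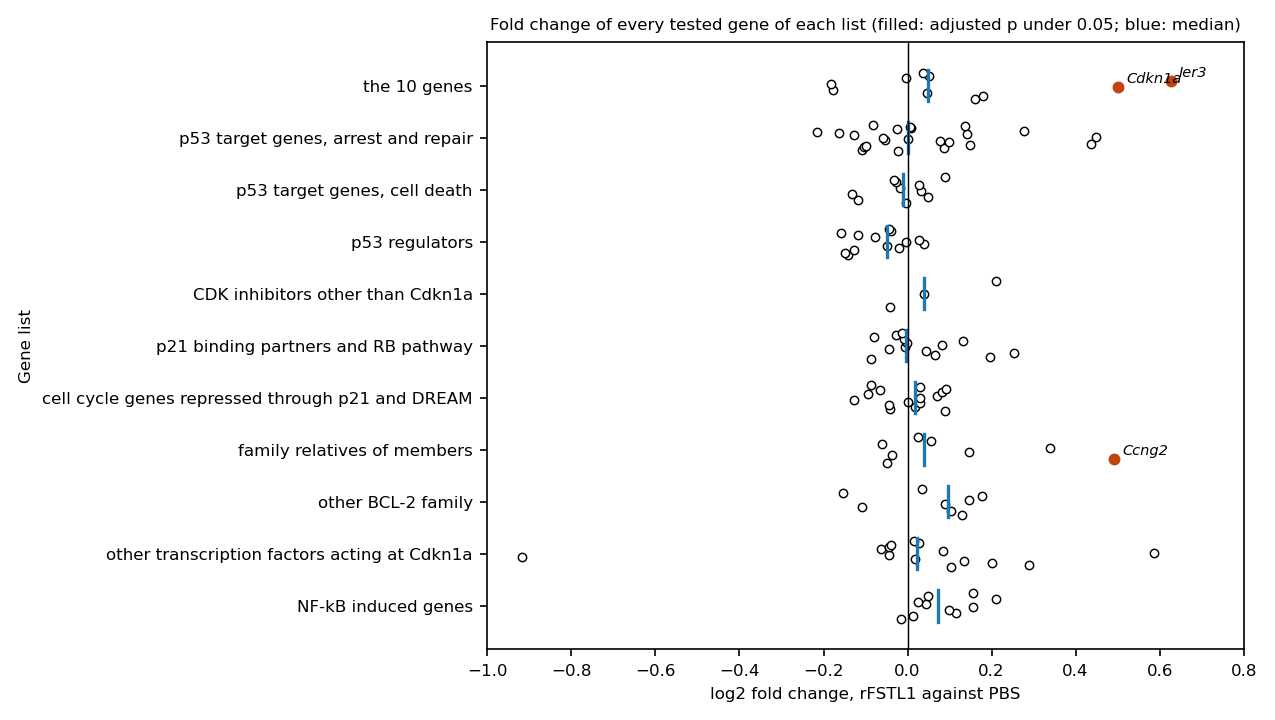
Log2 fold change, rFSTL1 against PBS, of each tested gene of each list, with filled points for an adjusted p under 0.05 and a blue line at the median. The filled points are Cdkn1a, Ier3 and Ccng2 (0.49), and the median of the p53 target lists lies near 0.

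None of the genes that act on p53 passed the edgeR test. Of 13 tested p53 regulators, 2 had a positive and 11 a negative log2 fold change, with a median of -0.05, beside 5587 positive and 5161 negative of all 10748 tested genes and their median of 0.01. DESeq2 also called 0 and limma voom called 1 (454 over all tested genes), and 3 had an unadjusted p under 0.05 (23.1%, against 15.9% of all tested genes). These were the kinases Atm (-0.14, adjusted p = 0.191, edgeR) and Atr (-0.15, adjusted p = 0.290, edgeR) and the deacetylase Sirt1 (-0.16, adjusted p = 0.289, edgeR). Cdkn2a, which encodes the MDM2 inhibitor ARF and the CDK inhibitor p16, had 0 counts in all libraries.

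Genes that p21 acts on had differences of both signs. Of 14 p21 partners and RB pathway genes, 6 had a positive and 8 a negative log2 fold change. In this list edgeR called 0, DESeq2 and limma voom called 2 each (195 and 454 over all tested genes), and 3 had an unadjusted p under 0.05 (21.4%, against 15.9% of all tested genes). The cyclins Ccnd1 (379 ± 19.2 to 434 ± 11.2 CPM, SD, n = 4; log2 fold change 0.20, adjusted p = 0.0673 from edgeR) and Ccnd3 (0.25, adjusted p = 0.0890, edgeR) were higher in every rFSTL1 library. E2f1, which drives S phase genes, had 0.13 (adjusted p = 0.313, edgeR). Of 15 cell cycle genes known to be repressed through p21 and the DREAM complex, 9 were positive and 6 negative, and 0 were called by edgeR, DESeq2 or limma voom or had an unadjusted p under 0.05. Mcm5 (0.08), Kif23 (-0.09) and Cdc25c (-0.13) had the smallest p-values of that list. Of the other CDK inhibitors, 3 of 6 were tested. Cdkn2d (p19INK4D) averaged 29.8 ± 0.833 and 34.6 ± 1.13 CPM in PBS and rFSTL1 libraries (SD, n = 4 each) without overlap (log2 fold change 0.21, adjusted p = 0.127 from edgeR), and Cdkn2c had 0.04. Of the 3, edgeR and DESeq2 called 0 and limma voom called 1 (454 over all tested genes). An unadjusted p under 0.05 was found for 1 of the 3 (33.3%, against 15.9% of all tested genes).

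Among relatives of the 10 genes, Ccng2 (cyclin G2), an atypical cyclin linked to growth arrest, was the gene called. It was 19.2, 20.1, 16.8 and 15.2 CPM under PBS and 28.0, 25.1, 25.4 and 22.2 CPM under rFSTL1. The log2 fold change was 0.49 (standard error 0.10, adjusted p = 0.0366 from edgeR), and it was the 1 gene called of 8 tested in a list of 12, beside 0.326% of all tested genes called higher. It was also the 1 gene of the list with an unadjusted p under 0.05 (12.5%, against 15.9% of all tested genes). DESeq2 and limma voom also called it (195 and 454 calls over all tested genes), and DESeq2 gave no adjusted p to 3 of the 8. Its call was lost when any 1 PBS library or rFSTL1 replicate 3 was left out (adjusted p from 0.0560 to 0.173, edgeR), with a log2 fold change of 0.42 to 0.56. The ratio of Ccng2 to Ccng1 rose from 0.202 ± 0.0287 to 0.321 ± 0.0183 (SD, n = 4), without overlap. Ccng2 was named for its call and Ccng1 had a negative difference here, so the ratio repeats those values and adds no support. Gadd45b (0.15) and Gadd45g (0.34) did not pass the test (adjusted p = 0.545 and 0.577, edgeR).

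The genes whose log2 CPM followed Cdkn1a most closely over the 8 libraries, among 8521 with a mean of at least 10 CPM, were Pgm1 (Pearson r 0.97), Ciart (0.97), Vegfa (0.965), Dynll1 (0.96) and Jmjd6 (0.96). For Ier3 they were Anxa2 (0.99), Ak4 (0.99), Bnip3 (0.98), Pgk1 (0.98) and Cd14 (0.98). These r values include the difference between the groups. With group means subtracted, the closest were Acadm (0.95), Vps25 (0.94), Snf8 (0.94), Ints12 (0.93) and Npepps (0.92) for Cdkn1a, and Cdc6 (0.98), Cyth1 (0.97), Gorab (0.97), Anxa2 (0.97) and Srsf5 (0.96) for Ier3. Anxa2 appeared in both rankings for Ier3. All these r values are the highest among 8521 genes over only 8 libraries, so they are a description and carry no test.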

How the data were processed

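Polyadenylated RNA of 8 RAW264.7 libraries (4 PBS, 4 rFSTL1) was compared. The authors deposited unnormalised expected counts (estimated counts) for 22013 genes, and 13% of nonzero values were not whole and were rounded. The submitters' processing notes name Bowtie2 2.2.8, HISAT2, StringTie 1.3.1 and DESeq2. The counting tool, strand setting, build and annotation are not given in the sources used here. A symbol was missing for 112 rows. Groups were taken from the labels' treatment field.

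Genes were kept by filterByExpr (minimum count 10), scaled by TMM and compared with the quasi-likelihood test of edgeR 4.0.16 (limma 3.58.1, R 4.3.3), with Benjamini-Hochberg adjustment over 10748 genes and a threshold of 0.05. CPM used TMM-scaled library sizes. Standard errors were the absolute log2 fold change over the square root of F, and log2 CPM for correlations had a prior count of 2. Exon lengths and overlaps came from GENCODE M21. The test was checked on simulated data.

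The 10 genes and all lists were chosen with earlier results of these data known. Named genes were the 10, each list's genes with an adjusted p under 0.05 and its 3 smallest p-values (2 for lists under 12 genes), and the 5 genes best correlated with Cdkn1a and with Ier3. Other genes of a list (Klf4, and genes with 0 or few counts) were named after their values were seen.

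Libraries of a group differed by more than sampling noise (lowest chi-square 3.03 per degree of freedom). Other fits used DESeq2 1.42.0 (which gave no adjusted p to 2918 genes), library totals alone, upper-quartile scaling, voom weights per sample (limma), all genes with at least 1 count, a replicate block and leaving out each library. A repeat of the last with genes filtered again, and all these fits for Ccng2, were added after seeing the data.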

Additional observations from a re-analysis of the deposited data

Results flagged for a closer look

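A library far from the other 3 of its group was found in 5 of 74 groups of 4 (37 genes in each treatment), where chance at 5% gives 3.7. Among the 10 genes, Trp53inp1 was 1.51 CPM in PBS replicate 4 against 0.850 to 0.941 CPM in the other PBS libraries, at 14 to 25 counts in a library. Among list genes, Myc was 1.85 CPM in rFSTL1 replicate 2 against 3.61 to 3.87 CPM. Tnfaip3 was 13.3 CPM in PBS replicate 2 against 13.9 to 14.0 CPM, and 14.2 CPM in rFSTL1 replicate 1 against 16.4 to 16.6 CPM. Traf1 was 24.4 CPM in rFSTL1 replicate 1 against 22.7 to 22.9 CPM.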

How the results depend on the processing

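As a description of genes selected on this comparison, and not as support for them, Cdkn1a was called in all 14 alternative fits (log2 fold change 0.47 to 0.54) and Ier3 in 12 of 14 (0.52 to 0.72). Ier3 was not called without PBS replicate 2 (adjusted p = 0.0659, edgeR) or without PBS replicate 3 (adjusted p = 0.0789, edgeR). The other 8 genes were called in none of the fits that gave them an adjusted p, and DESeq2 gave none to Trp53inp1, Bbc3 and Gadd45a. Leaving out 1 library therefore gave 1 to 2 called genes among the 10, with genes filtered again as well as not. Ccng2 kept its call in the 6 fits on all libraries and lost it in 5 of the 8 that left out 1, or 6 of the 8 with genes filtered again (then also without rFSTL1 replicate 1).

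Over all tested genes, the 37 calls became 195 with DESeq2, 454 with limma voom, 56 with upper-quartile scaling and 127 with all genes of at least 1 count. Leaving out 1 library gave 11 (without PBS replicate 2) to 203 (without rFSTL1 replicate 2), and 11 to 99 with genes filtered again. In the p53 target lists, limma voom called 1 gene (Plk2), and leaving out 1 library gave 0 to 1 (Sesn1, lower, without rFSTL1 replicate 2). With genes filtered again it gave 0.

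Signs changed among genes that were never called. Mdm2 was 0.00721 with upper-quartile scaling and Btg2 was -0.0758 with limma voom. Over the fits that left out 1 library, with or without filtering again, the log2 fold change ran from -0.00936 to 0.0942 for Trp53, from -0.0401 to 0.0442 for Mdm2, from -0.0798 to 0.232 for Trp53inp1, from -0.446 to 0.0266 for Gadd45a and from -0.131 to 0.128 for Btg2. The cause was not tested. With 4 libraries a group and few counts for Gadd45a and Trp53inp1, the precision for these genes is low.

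Replicate numbers did not pair libraries, since same-numbered libraries had correlations of -0.03, 0.01, -0.01 and -0.01 between their deviations. The fit with a replicate block called 41 genes, with the same 2 among the 10.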

Other observations

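Factors other than p53 that are known to act at the Cdkn1a promoter had differences of both signs. Of 14 such genes, all tested, 9 had a positive and 5 a negative log2 fold change. No gene was called by edgeR, limma voom called 1 (454 over all tested genes), and DESeq2 called 0 and gave no adjusted p to 4. An unadjusted p under 0.05 was found for 4 (28.6%, against 15.9% of all tested genes). Cebpb, a factor of myeloid differentiation, was 41.3 ± 2.12 CPM under PBS and 50.3 ± 9.95 CPM under rFSTL1 (SD, n = 4; log2 fold change 0.29, adjusted p = 0.212 from edgeR). Myc, which represses Cdkn1a, had 0.59 (adjusted p = 0.239, edgeR) at 2.18 ± 0.294 and 3.26 ± 0.945 CPM (SD, n = 4), and Egr1 had 0.20 (adjusted p = 0.287, edgeR). The fourth was Klf4, a zinc finger factor, which was the one with a negative difference and the largest change of the list, at 0.936 ± 0.236 and 0.495 ± 0.288 CPM (SD, n = 4; log2 fold change -0.92, adjusted p = 0.287, edgeR). Its groups overlapped, it had at most 25 counts in a library, and it was named after its values were seen.

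Of 10 genes known to be induced by NF-kB, 9 had a positive log2 fold change, as did 5587 of all 10748 tested genes, with a median of 0.07 against 0.01. No gene was called by edgeR or limma voom, DESeq2 called 0 and gave no adjusted p to 3, and 1 had an unadjusted p under 0.05 (10%, against 15.9% of all tested genes). That gene, Tnfaip3 (A20), an inhibitor of NF-kB signalling, was higher in all rFSTL1 libraries (0.21, adjusted p = 0.243, edgeR), and Traf1 had 0.16 (adjusted p = 0.346, edgeR). Of the other BCL-2 family genes, 8 of 11 were tested, 6 were positive and 2 negative, 0 were called by edgeR, DESeq2 (with no adjusted p for 1) or limma voom, and 2 had an unadjusted p under 0.05 (25%, against 15.9% of all tested genes). These were the survival gene Bcl2l2 (0.18, adjusted p = 0.251, edgeR) and the pore-forming Bak1 (0.10, adjusted p = 0.295, edgeR).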
